A study of Mus musculus with 12 samples.

Results

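The genes described here are 10 genes of MHC class II antigen presentation and T-cell costimulation, chosen by name from 52553 features: Ciita, Cd74, H2-Aa, H2-Ab1, H2-Eb1, H2-DMa, H2-DMb1, Cd80, Cd86 and Cd274. All 10 passed the filter on low counts and were among 20135 features tested. RNA was sequenced from CD115+ monocytes of male C57BL/6 mice, sorted with anti-CD115 magnetic beads after density gradient centrifugation of blood or dissociated spleen. There were 4 groups of 3 libraries, each library pooled from 5 mice: intact spleen, intact blood, and spleen and blood taken 24 h after resection of 70% of the liver (PH70%). All of these animals kept their spleen. The labels call the control animals intact; the study also used sham-operated controls, and whether the donors of these libraries had a sham operation is not stated, so it is unknown whether the comparison separates the loss of liver tissue from the surgery itself. No source says whether libraries of a group came from separate sorting days, so p-values measure only the spread between these libraries.

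MHC class II molecules are pairs of an alpha and a beta chain that carry peptides from endocytosed proteins to the cell surface, where CD4+ T cells read them. The pairs are assembled with the invariant chain Cd74, which blocks the groove until lysosomal proteases cut it away, and H2-DM then exchanges the remaining fragment for antigenic peptides. Transcription of all these genes depends on the coactivator Ciita, which is recruited by factors bound to a shared promoter module. B cells and dendritic cells express the module's genes constitutively, while monocytes express them at lower levels. Cd80 and Cd86 bind Cd28 and Ctla4 on T cells as the second signal beside the peptide, and Cd274 (PD-L1) binds the inhibitory receptor Pdcd1.

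The shared promoter module is shown because it is the stretch of DNA through which Ciita is known to act. It was searched as the letters GNAAC of an X box followed, 15 to 35 bases later, by the letters TGATTGG of a Y box, on either strand, in RefSeq windows from 250 bases before to 50 bases after each start site of assembly GRCm38.p6. Windows were found for 6 of the 10 genes. The spacing and letters were set after the sequences had been read, so the matches are a description. The module was present in H2-Aa, H2-Eb1 and H2-DMb1, and was not matched in the windows of H2-DMa, Cd80 and Cd274. Among the 5 class II genes beside the 10, 4 had a window and 3 of these held the module (H2-Eb2, H2-Oa and H2-Ob). It was present in 187 of all 32851 windows (0.569%), and the Y box core ATTGG alone was in 37.4%. The capitals below mark the X box and the Y box. All lie on chromosome 17, where the MHC is, and the X box begins 76 to 132 bases before the start site.
H2-Aa, chr17:34287861-34287910, minus strand: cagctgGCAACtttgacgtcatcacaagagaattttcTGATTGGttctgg
H2-Eb1, chr17:34305770-34305818, plus strand: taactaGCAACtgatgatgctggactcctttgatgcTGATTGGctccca
H2-DMb1, chr17:34153091-34153140, plus strand: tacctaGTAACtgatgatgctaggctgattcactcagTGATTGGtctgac
H2-Eb2, chr17:34325537-34325585, plus strand: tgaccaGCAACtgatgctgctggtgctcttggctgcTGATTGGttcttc
H2-Oa, chr17:34092297-34092346, plus strand: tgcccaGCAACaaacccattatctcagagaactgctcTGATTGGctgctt
H2-Ob, chr17:34238812-34238858, plus strand: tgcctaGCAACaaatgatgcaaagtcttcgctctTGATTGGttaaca
The distance between the boxes was 23 to 26 bases in these 6 genes. None of the windows of the other fixed gene lists held the module.

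The libraries were checked against their label before the results. Total estimated counts ran from 36990033 to 46401368 per library. Csf1r, which encodes CD115, was present in every library at 209 to 1192 CPM (reads scaled to library size, with TMM factors). The 12 monocyte markers summed to 3863 to 4145 CPM in intact and 4740.5 to 4951 CPM in resected spleen, and to 3771 to 9890 CPM in intact and 13177 to 15374 CPM in resected blood. RNA of other cells was present too: all 12 B-cell markers found were above the counting limit of 3 counts in all 12 libraries, as were the 10 conventional dendritic cell markers. The summed B-cell markers spanned 6232 to 7176 CPM in intact spleen, 1595 to 5435 CPM in spleen after resection, 707 to 3249 CPM in intact blood and 999 to 2354 CPM in blood after resection. In intact spleen they lay above the summed monocyte markers, without correction for gene length. Library 3 was the lowest of its group for all 12 B-cell markers in intact blood, resected blood and resected spleen. In those same 3 groups it was also the lowest for Ciita, Cd74 and the 5 other class II genes. Intact blood library 3 differed in other lists too. It was lowest of its group for the summed monocyte markers (3771 against 9890 and 7026 CPM) and class I pathway genes (3229 against 5521 and 5870 CPM). For the summed T-cell markers it was highest (1500 against 854 and 796 CPM). The neutrophil markers summed to 142 to 524 CPM in intact blood and 3842 to 19936 CPM after resection, and to 1332 to 2420 CPM and 5596 to 15130 CPM in the spleen. The share of these other cells in the results below was not tested, and in bulk RNA a change in the number of cells of a type and in their RNA per cell cannot be told apart.

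**Figure D1:**
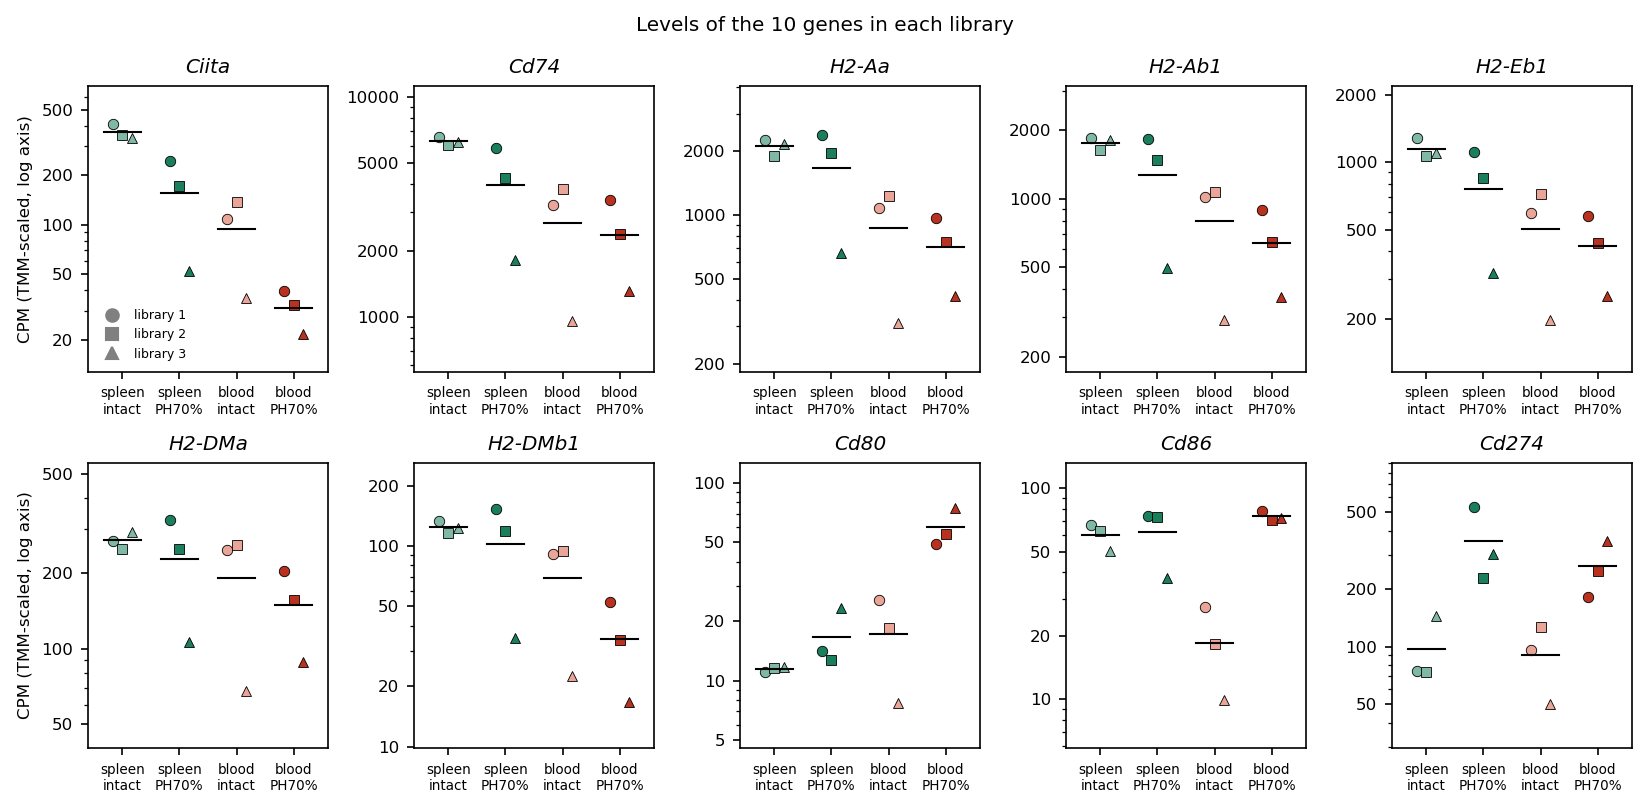
Level of each of the 10 genes in every library, in CPM after TMM scaling on a log axis that differs between panels. Colours mark the 4 groups, symbols the library number and black lines the mean of 3 libraries; library 3 (triangles) is the lowest of its group for the 7 class II genes in all groups but intact spleen, while Cd80 and Cd274 follow that order in intact blood and not in the resected groups.

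The class II genes had their highest means in intact spleen, and in no tissue did they pass the test after resection. H2-Ab1, the beta chain of the I-A molecule, stood at 1848, 1631 and 1805 CPM in the intact and 1831, 1481 and 494 CPM in the resected spleen. In blood it stood at 1017, 1072 and 292 CPM in intact animals and at 889, 646 and 367 CPM after resection. The groups overlapped in both tissues, and the log2 fold change of H2-Ab1 after resection was -0.32 ± 0.56 (SE, edgeR adjusted p = 0.719) in blood and -0.47 ± 0.56 (adjusted p = 0.684) in the spleen. Its partner H2-Aa, the alpha chain, was at 2252, 1894 and 2159 CPM in intact spleen, 2377, 1959 and 661 CPM in resected spleen, 1084, 1223 and 312 CPM in intact blood and 965, 745 and 419 CPM in resected blood. H2-Eb1, the beta chain of the I-E molecule, followed the same order of libraries, with means of 1149 ± 120 (SD, n = 3), 761 ± 405, 502 ± 272 and 422 ± 163 CPM in the same 4 groups.

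Cd74, the invariant chain, was measured at 6597, 6036 and 6236 CPM in the intact and 5854, 4259 and 1815 CPM in the resected spleen. In the spleen its libraries did not overlap between states, yet the log2 fold change of -0.66 ± 0.55 did not pass (edgeR adjusted p = 0.540). In blood Cd74 was at 3232, 3799 and 955 CPM before and 3406, 2378 and 1303 CPM after resection, and the groups overlapped. H2-DMa, a subunit of the peptide exchanger, was also lower by less than its error (-0.35 ± 0.52 in blood and -0.25 ± 0.52 in the spleen on the log2 scale). H2-DMb1, the other subunit, stood at 91.7, 93.9 and 22.4 CPM in intact blood and at 52.8, 33.9 and 16.7 CPM in resected animals. Its log2 fold change of -1.01 ± 0.63 did not pass (edgeR adjusted p = 0.280), but it did (-1.10, adjusted p = 0.0110) when the number 3 libraries of intact blood, resected blood and resected spleen were left out together. H2-DMb1 has a close copy, H2-DMb2, and how reads shared by both were divided is not stated, so its counts are uncertain.

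The class II genes varied together from library to library. Over the 12 libraries Pearson's r of log2 CPM between pairs of H2-Aa, H2-Ab1, H2-Eb1, H2-DMa, H2-DMb1 and Cd74 lay between 0.946 and 0.996, as a description without a test, since the libraries share their groups and their cell makeup. The same 6 genes had an r of 0.905 to 0.984 with Cd79a, a subunit of the B-cell receptor complex, and of 0.197 to 0.356 with Csf1r. After removal of the group means the r was 0.969 to 0.989 with Cd79a and 0.653 to 0.715 with Csf1r, so the gap between the 2 genes was smaller on that measure. Of the dendritic cell markers, Flt3, Zbtb46 and Cd209a had an r of 0.621 to 0.801, 0.693 to 0.857 and 0.347 to 0.527 with the 6 genes over the 12 libraries. After removal of the group means it was 0.667 to 0.718, 0.703 to 0.748 and 0.9375 to 0.965, the last of these close to that of Cd79a. The 5 features most like H2-Ab1, among 10395 with a symbol and a mean of at least 5 CPM, were H2-Eb1, H2-Aa, H2-DMb2, H2-Ea and Cd74, with r from 0.992 to 0.996. Relative to Cd79a in the same library, H2-Ab1 was at 137% to 148% in intact spleen, 133% to 190% in resected spleen, 171% to 237% in intact blood and 173% to 178% in resected blood. The ranges of the intact and resected libraries overlapped within each tissue, in the spleen only through resected library 3 (133%, against 189% and 190% in libraries 1 and 2). The ranges of intact spleen and intact blood did not overlap.

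**Figure D2:**
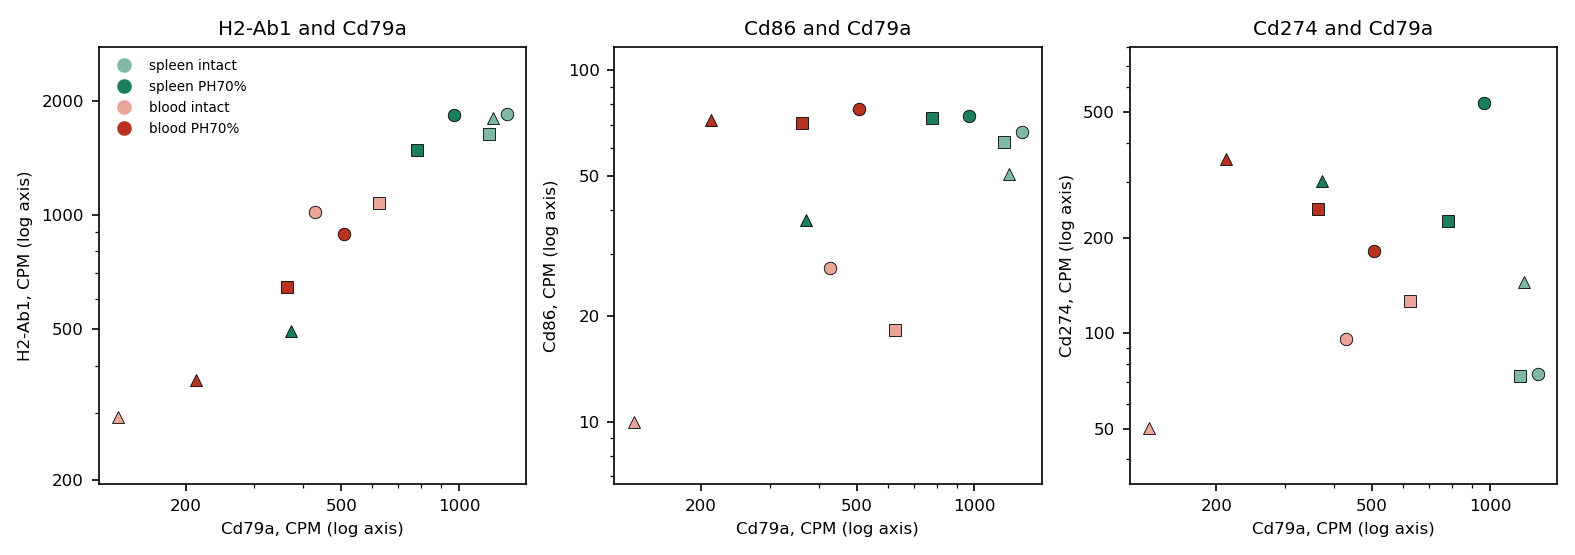
H2-Ab1, Cd86 and Cd274 plotted against the B-cell gene Cd79a in the 12 libraries, all in CPM after TMM scaling on log axes, with colours for the groups and symbols for the library number (circle 1, square 2, triangle 3). H2-Ab1 rises with Cd79a over the 12 libraries, at 133% to 237% of its CPM. Cd86 stays between 71.0 and 77.7 CPM in the resected blood libraries as Cd79a ranges from 212 to 507 CPM. In resected spleen and intact blood Cd86 is lowest in library 3 (37.6 and 9.98 CPM), as Cd79a is.

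Ciita, the coactivator that switches the class II promoters on, had the largest negative fold change of the 10 genes in both resection comparisons, without passing the test in either. It was at 409, 349 and 335 CPM in the intact and 245, 171 and 52.2 CPM in the resected spleen, with no overlap. In blood it was at 109, 137 and 35.9 CPM in intact animals and at 39.8, 32.8 and 21.8 CPM after resection, where only the low intact library 3 reached into the range of the resected ones. The log2 fold changes were -1.58 ± 0.57 in blood (edgeR adjusted p = 0.0756) and -1.22 ± 0.56 in the spleen (adjusted p = 0.253). The call in blood depended on the libraries and the method. It passed without intact blood library 3 (-1.98, adjusted p = 0.0264), without resected spleen library 3 (-1.58, adjusted p = 0.0344), without all 3 low libraries (-1.76, adjusted p = 0.00275) and in DESeq2 (-1.57, adjusted p = 0.0215).

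Set against H2-Ab1 in the same library, Ciita separated the intact from the resected groups in each tissue. This ratio was chosen after its values had been seen and is given without a test. It was 22.1%, 21.4% and 18.5% in intact spleen and 13.4%, 11.5% and 10.6% in resected spleen. It was 10.7%, 12.8% and 12.3% in intact blood and 4.48%, 5.08% and 5.94% in resected blood. No library of the resected state reached the lowest intact library of its tissue, including the number 3 libraries in which both genes were low. Relative to Cd79a, Ciita was at 21.9% to 26.7% in intact and 7.85% to 10.3% in resected blood, and at 27.4% to 30.9% in intact and 14.1% to 25.3% in resected spleen. Such a separation was not particular to Ciita. H2-Ob relative to H2-Ab1 was at 24.1% to 24.4% in intact and 16.5% to 17.3% in resected spleen, and overlapped in blood. H2-DMb1 relative to H2-DMa was at 32.9% to 37.1% in intact and 18.9% to 25.7% in resected blood, and overlapped in the spleen. These percentages are ratios of read counts within a library, not corrected for gene length, and compare libraries rather than genes.

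**Figure D3:**
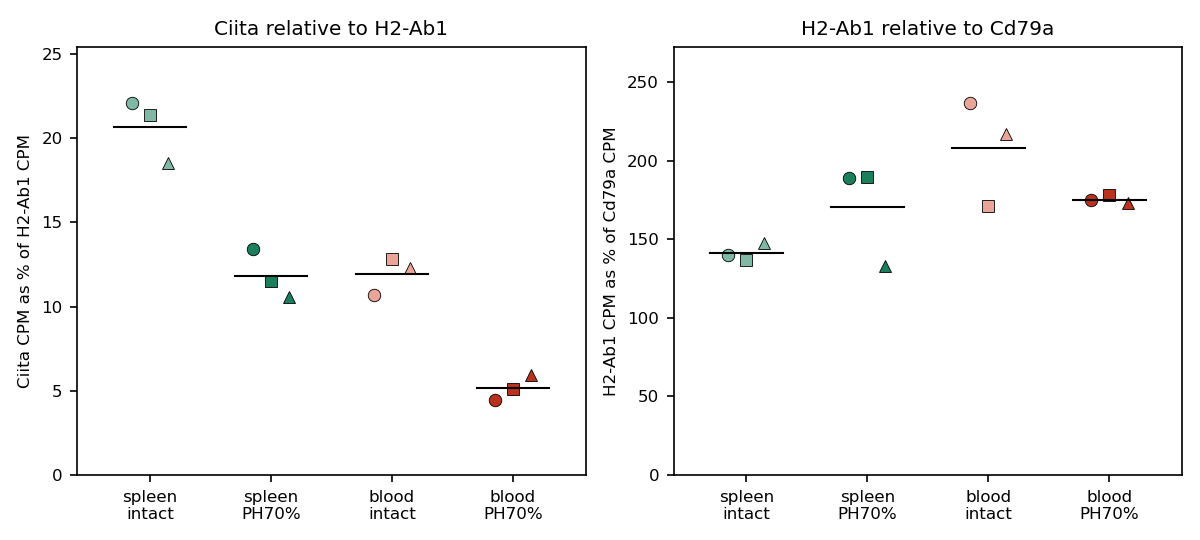
Ciita as a percentage of H2-Ab1 (left) and H2-Ab1 as a percentage of Cd79a (right) in every library, with black lines at the mean of 3 libraries and both axes starting at 0. Ciita relative to H2-Ab1 is 18.5% to 22.1% in intact spleen and 4.48% to 5.94% in resected blood, while H2-Ab1 relative to Cd79a overlaps between the intact and resected libraries of each tissue.

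The genes around Ciita were described from fixed lists, chosen with earlier results of these data known. A gene is called here at an adjusted p-value (Benjamini-Hochberg) under 0.05 in edgeR's quasi-likelihood test and an absolute log2 fold change above 1. Over all features tested 7.80% were called higher and 6.11% lower in blood after resection, and 0.780% and 0.596% in the spleen. From the 12 genes of the interferon-gamma input and Ciita control list, Spi1, the myeloid transcription factor PU.1, rose in blood (1.83 ± 0.42, edgeR adjusted p = 0.0135), except without resected blood library 3 (1.52, adjusted p = 0.0563) and when only the blood libraries were fitted (1.83, adjusted p = 0.0567). In this list 1 gene was called higher and 1 lower in blood, and 0 higher and 1 lower in the spleen. The median log2 fold change of the list was 0.22 in blood and -0.11 in the spleen, against -0.10 and 0.05 over all features tested.

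Of the 7 class II promoter factors, Creb1, the cAMP response factor that binds beside the X box, fell in blood (-1.26 ± 0.17, edgeR adjusted p = 0.00170). None of the 7 was called in the spleen (0 in edgeR, 3 lower at an unadjusted p under 0.05), and their medians were -0.59 in blood and -0.37 in the spleen. The other 5 class II genes (H2-Ea, H2-Eb2, H2-Oa, H2-Ob and H2-DMb2) also had negative fold changes in both tissues. None of them was called after resection in edgeR (1 was lower at an unadjusted p under 0.05 in blood, 0 in the spleen).

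The 3 costimulatory and coinhibitory members rose in blood after resection. They were the only ones of the 10 called in that comparison, in which 7.80% of all features tested were called higher and 6.11% lower. Cd86 stood at 27.5, 18.3 and 9.98 CPM in intact blood and at 77.7, 71.0 and 72.4 CPM after resection, a log2 fold change of 1.99 ± 0.36 or 3.97-fold (edgeR adjusted p = 0.00500). The resected libraries lay close together and far above the intact ones. Cd80 stood at 25.5, 18.6 and 7.75 CPM in intact blood and at 49.2, 55.0 and 74.5 CPM after resection (1.79 ± 0.39, 3.45-fold, adjusted p = 0.0115). Cd80 did not pass when only the blood libraries were fitted (1.79, adjusted p = 0.0551). The calls of Cd86 and Cd80 held in all 12 fits without 1 library and without the 3 low libraries.

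Cd274 stood at 95.7, 126 and 50.1 CPM in intact blood and at 182, 247 and 356 CPM after resection, with no overlap. Its log2 fold change was 1.53 ± 0.45, or 2.89-fold (edgeR adjusted p = 0.0379). This call was the least secure of the 3. It was lost in 6 of the 12 fits without 1 library, namely intact spleen 1 or 2, intact blood 1 or 3, and resected blood 2 or 3, at log2 fold changes of 1.23 to 1.59 and adjusted p of 0.0531 to 0.132. Without the 3 low libraries it was 0.95 (adjusted p = 0.203), with only the blood libraries fitted 1.53 (adjusted p = 0.0653) and with no filter on low counts 1.51 (adjusted p = 0.0578). The libraries of the intact and resected groups did not overlap for Cd80, Cd86 and Cd274 in blood, that is for 3 of the 10 genes against 38.4% of all features tested.

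**Figure D4:**
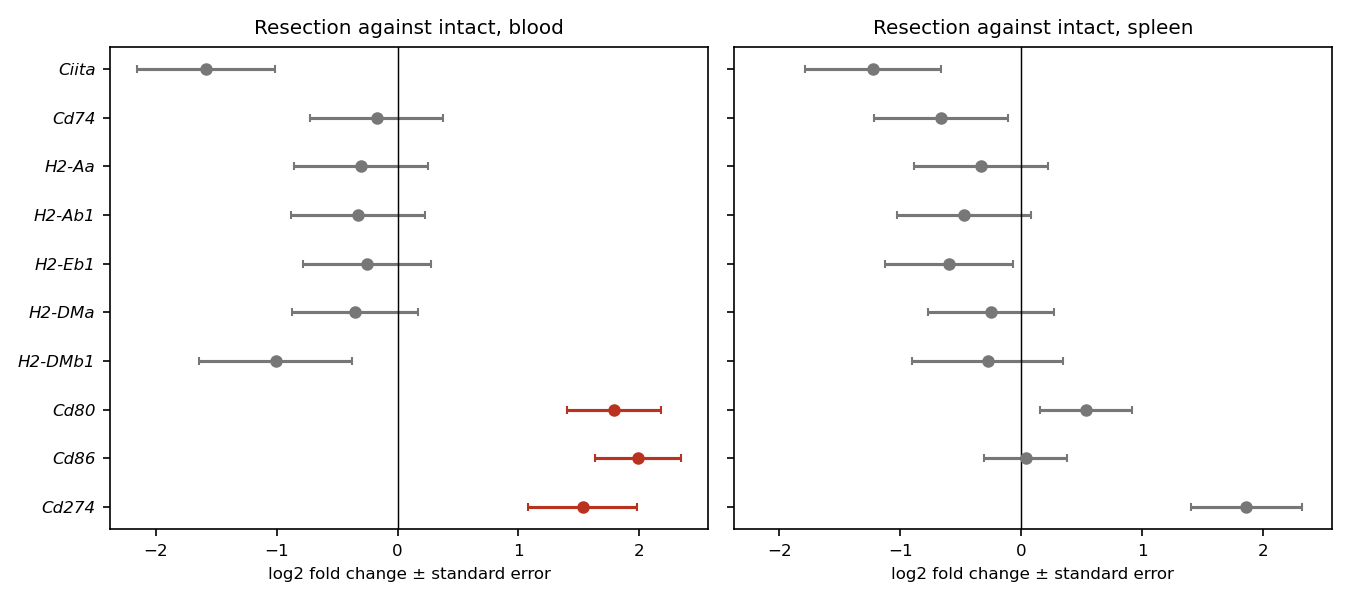
Log2 fold change of each of the 10 genes after resection, in blood (left) and spleen (right), with bars of 1 standard error from edgeR's quasi-likelihood fit over 12 libraries; red marks the genes called. Cd80, Cd86 and Cd274 lie at 1.79, 1.99 and 1.53 in blood, and in the spleen Cd86 lies at 0.04 and Cd274 at 1.86.

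In the spleen none of these 3 genes passed the test. Cd86 was at 66.6, 62.7 and 50.6 CPM in intact and 74.1, 73.3 and 37.6 CPM in resected spleen, a log2 fold change of 0.04 ± 0.34 (edgeR adjusted p = 0.969). Cd80 was at 11.1, 11.7 and 11.8 CPM in intact and 14.2, 12.7 and 23.2 CPM in resected spleen (0.54 ± 0.38, adjusted p = 0.461). Cd274 was at 74.6, 73.3 and 145 CPM in the intact and 535, 227 and 303 CPM in the resected spleen, and the groups did not overlap. Its log2 fold change of 1.86 ± 0.46 was larger than in blood but had an adjusted p of 0.0654. It passed in DESeq2 (1.86, adjusted p = 0.00131), with a minimum of 10 counts in every library (1.86, adjusted p = 0.0412), without intact blood library 3 (1.86, adjusted p = 0.0291) and without the 3 low libraries (1.97, adjusted p = 0.0417).

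None of the 10 genes was called after resection in the spleen in edgeR, where 0.780% of all features tested were called higher and 0.596% lower. At an unadjusted p under 0.05 there was 1 higher (Cd274), and DESeq2 called 1. The libraries of both states did not overlap for 4 of the 10 genes (Ciita, Cd74, Cd80 and Cd274), against 35.1% of all features. Whether resection acted differently in blood and spleen was tested itself. It was not called for any of the 10 genes in edgeR (2 higher in blood at an unadjusted p under 0.05), against 0.219% of features called higher and 0.0646% lower. It was largest for Cd86, at 1.95 ± 0.49 on the log2 scale (edgeR adjusted p = 0.131), and DESeq2 called it (1.98, adjusted p = 0.00594). For Cd80 it was 1.25 ± 0.54 (edgeR adjusted p = 0.274).

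Cd86 and Cd274 had a higher r with Csf1r than with the B-cell gene Cd79a over all libraries, but a similar one within groups. Over the 12 libraries Pearson's r with Csf1r was 0.775 for Cd86, 0.826 for Cd274 and 0.379 for Cd80, and with Cd79a it was 0.501, -0.00413 and -0.395. After removal of the group means the r with Csf1r was 0.814, 0.444 and 0.387 for Cd86, Cd274 and Cd80, and with Cd79a it was 0.774, 0.362 and 0.240. These are descriptions across libraries of 4 groups and carry no test. The 5 features most like Cd86 were Otulin, Mthfs, Cryzl1, Gm6377 and Ppt1, with r from 0.914 to 0.929. For Cd274 they were Tmem251, Gla, Vps18, Wbp2 and Bhlhe40, with r from 0.949 to 0.977. In blood, where the 3 genes rose, all 10 neutrophil markers and 9 of 12 macrophage markers were also called higher, 7 of 9 T-cell markers were called lower, and none of the 12 B-cell markers was called in edgeR (0 higher and 2 lower at an unadjusted p under 0.05). Of 12 monocyte markers 3 were called higher and 1 lower, and of 10 conventional dendritic cell markers 2 higher and 1 lower. Of 8 plasmacytoid dendritic cell markers 0 were called higher and 1 lower. The shares over all features in blood were 7.80% higher and 6.11% lower. In the spleen 2 of 10 neutrophil markers were called higher and none of the macrophage markers was called (9 higher and 1 lower at an unadjusted p under 0.05). There 1 of 10 conventional dendritic cell markers was called lower and 0 of 12 monocyte markers were called (2 higher and 3 lower at an unadjusted p under 0.05). The shares over all features in the spleen were 0.780% higher and 0.596% lower.

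Some further genes of costimulatory and coinhibitory ligands were called in blood after resection, in bulk RNA whose cells of origin were not tested. Of the 18 tested members of the list of other costimulatory and coinhibitory ligands, 6 were called higher and 2 lower, against 7.80% and 6.11% of all features, and the median log2 fold change was 0.47. The 2 lower ones are a share near that of all features. Tnfsf9 (4-1BB ligand), which costimulates activated T cells, was at 1.10, 1.59 and 1.18 CPM in intact blood and at 121, 176 and 89.3 CPM after resection. In the spleen it stayed between 0.800 and 3.22 CPM in all 6 libraries. The log2 fold change in blood was 6.64 ± 0.61 (edgeR adjusted p = 0.000450). Icam1, the adhesion ligand of LFA-1, rose by 2.93 ± 0.46 (adjusted p = 0.00299) and Nectin2, a ligand of the receptors CD226 and TIGIT, by 3.07 ± 0.53 (adjusted p = 0.00398), and these 3 calls held in all 12 fits without 1 library.

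The called genes that fell were Tnfrsf14 (HVEM), at -1.20 ± 0.28 (edgeR adjusted p = 0.0162), and Cd276 (B7-H3), at -2.01 ± 0.58 (adjusted p = 0.0339) from a mean of 0.763 to 0.188 CPM. Both were insecure. Tnfrsf14 was called in 7 and Cd276 in 5 of the 12 fits without 1 library, at -0.92 to -1.25 and -1.20 to -2.32 where the call was lost, and neither was called when only the blood libraries were fitted. Cd276 was not called with no filter on low counts or without the 3 low libraries either. In the spleen Nectin2 was the called ligand (2.50 ± 0.51, edgeR adjusted p = 0.0420), from 0.694, 0.856 and 1.47 CPM to 4.06, 4.30 and 8.80 CPM. That call held in 2 of the 12 fits without 1 library, with 2.06 to 2.87 in the others, and was lost with no filter on low counts and with only the spleen libraries fitted. On the T-cell side, Cd4, Cd28 and Cd40lg were called lower in blood (-2.34 ± 0.32, -2.47 ± 0.50 and -2.91 ± 0.71), and Havcr2 (TIM-3), which myeloid cells also express, was called higher (2.87 ± 0.58). Cd40lg lost its call without intact blood library 1 or resected blood library 2 or 3, at -2.44 to -3.14, and Cd40lg and Havcr2 lost theirs when only the blood libraries were fitted (-2.91 and 2.87, adjusted p = 0.0716 and 0.0543).

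Proteases that cut the invariant chain and antigens rose in blood after resection. Of the 11 genes of class II antigen processing and turnover, 5 were called higher in blood and none lower, against 7.80% and 6.11% of all features tested. All 11 had positive fold changes, and the median was 1.01 on the log2 scale. Ctsd, the aspartic protease cathepsin D, was at 506, 413 and 564 CPM in intact and 2935, 3482 and 3390 CPM in resected blood (2.73 ± 0.22, edgeR adjusted p = 0.000394). Lgmn, an asparaginyl endopeptidase, rose by 2.53 ± 0.26 (adjusted p = 0.000612) and Ctsb, cathepsin B, by 2.08 ± 0.23 (adjusted p = 0.000749). In the spleen, where 0.780% of all features were called higher, these same 3 were the called members of the list. They were at 1.32 ± 0.21, 1.21 ± 0.24 and 1.09 ± 0.22 (edgeR adjusted p = 0.0253, 0.0416 and 0.0420). The blood calls held in all 12 fits without 1 library, while the spleen calls of Ctsd, Lgmn and Ctsb held in 7, 2 and 1 of them, with log2 fold changes of 0.91 to 1.48 throughout for the 3 genes. The spleen calls of Lgmn and Ctsb were also lost with no filter on low counts, and that of Ctsb with only the spleen libraries fitted. These proteases also serve general lysosomal degradation and are abundant in macrophages.

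The class I pathway, which shows peptides of cytosolic proteins to CD8+ T cells, had a median log2 fold change of 0.07 in blood and -0.37 in the spleen. Of its 16 genes 2 were called in blood, the chaperones Calr (1.11 ± 0.18, edgeR adjusted p = 0.00309) and Pdia3 (1.03 ± 0.15, adjusted p = 0.00209), which serve protein folding at large. Both were called higher, against 7.80% of all features, and none of the 16 was called lower. Pdia3 went under the limit of 1 without resected blood library 2 (0.97). None was called in the spleen (0 higher and 6 lower at an unadjusted p under 0.05).

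**Figure D5:**
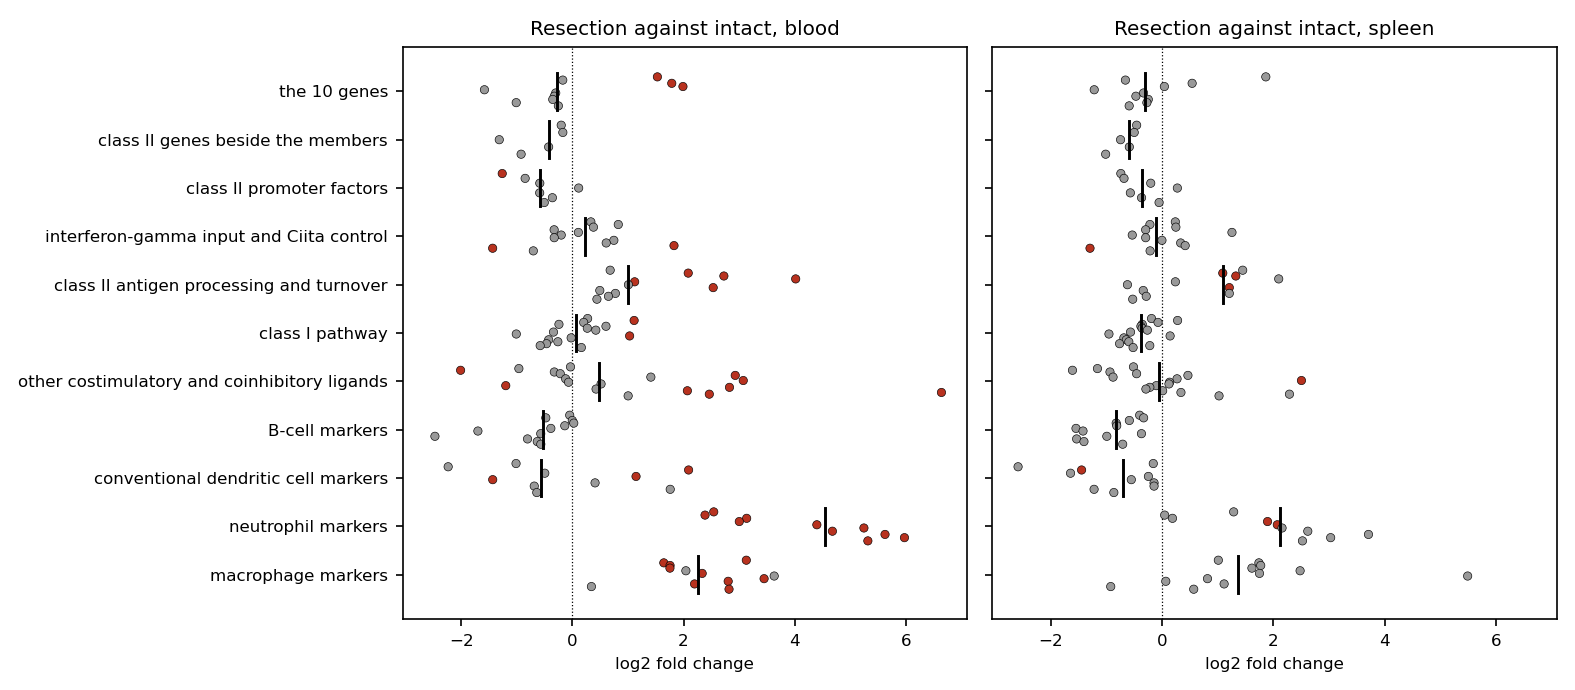
Log2 fold change after resection of every tested gene of 11 fixed lists, in blood (left) and spleen (right), with 1 point per gene, red for called genes and a black bar at the median of the list. In blood the class II antigen processing genes have a median of 1.01 and the neutrophil markers of 4.54, while the B-cell markers have a median of -0.52 with 0 called.

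Between the tissues, the class II genes had lower means in intact blood than in intact spleen, but none of them was called in edgeR. The libraries did not overlap for 7 of the 10 genes (Ciita, Cd74, H2-Aa, H2-Ab1, H2-Eb1, H2-DMb1 and Cd86), against 34.5% of all features tested. Only Cd86 was called, lower in blood (-1.69 ± 0.35, edgeR adjusted p = 0.0189), where 3.86% of features were called higher and 3.49% lower. That call was lost without intact spleen library 1 or 2 or intact blood library 2 (-1.51 to -1.59, adjusted p of 0.0686 to 0.0862) and with only the intact libraries fitted (-1.69, adjusted p = 0.0647). Ciita was at -1.95 ± 0.58 (adjusted p = 0.0626) and passed without resected spleen library 3 (-1.85, adjusted p = 0.0355), without the 3 low libraries (-1.46, adjusted p = 0.00515) and in DESeq2 (-1.87, adjusted p = 0.00871). Cd80 was at 0.58 ± 0.38 and passed without intact blood library 3 (1.04, adjusted p = 0.0464). Cd74, H2-Aa, H2-Ab1, H2-Eb1, H2-DMa and H2-DMb1 lay between -1.27 and -0.50 without passing. Over the fits without 1 library Cd74 ran from -1.49 to -0.74, H2-Aa from -1.50 to -0.76 and H2-Ab1 from -1.33 to -0.65. H2-Eb1 ran from -1.45 to -0.71, H2-DMb1 from -1.02 to -0.31 and H2-DMa from -0.69 to 0.0051. These genes varied together from library to library, so their lack of overlap does not come from separate observations. The 12 B-cell markers had a median log2 fold change of -1.69 in the same comparison, all negative.

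Beside the 10 genes, H2-Eb2 and H2-Oa were the class II genes called lower in intact blood. In this comparison 3.86% of all features tested were called higher in blood and 3.49% lower. H2-Oa, the alpha chain of the H2-DM inhibitor H2-O, which is expressed mainly by B cells, was at 84.9, 77.2 and 80.3 CPM in spleen and at 18.1, 21.3 and 6.16 CPM in blood (-2.41 ± 0.59, edgeR adjusted p = 0.0330). H2-Eb2, a close relative of H2-Eb1, was at -3.02 ± 0.54 (adjusted p = 0.00997). The call of H2-Eb2 held in all 12 fits without 1 library and that of H2-Oa in 3, with -1.93 to -2.65 in the others and a loss with no filter on low counts. The B-cell markers called lower were Cr2 (-3.71 ± 0.80) and Cd22 (-2.15 ± 0.58), which held in 8 and 1 of these fits. That of Cd22 was also lost with RLE factors, with no filter on low counts, with symbol entries alone, without haemoglobin genes and with only the intact libraries fitted. The 10 conventional dendritic cell markers went both ways, with 3 called lower and 1 higher in blood and a median log2 fold change of -1.01. Flt3 (-1.88 ± 0.31), Zbtb46 (-2.05 ± 0.43) and Xcr1 (-3.05 ± 0.72) were lower, in 12, 8 and 3 of the fits without 1 library, and Clec10a (1.03 ± 0.28, edgeR adjusted p = 0.0487) was higher, in 3. The call of Clec10a was also lost with no filter on low counts, with symbol entries alone and with only the intact libraries fitted.

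Other ligands differed between the tissues in intact animals. Vsig4, a complement receptor of macrophages that inhibits T cells, was at a mean of 7.73 CPM in blood and 0.133 CPM in spleen (5.82 ± 0.73, edgeR adjusted p = 0.00238), and Pvr, a ligand of CD226 and TIGIT, was higher in blood by 1.60 ± 0.33. Cd200, whose receptor restrains myeloid cells, was lower in blood (-2.47 ± 0.41), as were Icosl, the ligand of the T-cell receptor ICOS (-2.49 ± 0.56), and Tnfsf14, the ligand of HVEM (-2.09 ± 0.47). The calls of Vsig4 and Cd200 held in all 12 fits without 1 library, and those of Pvr, Tnfsf14 and Icosl in 10, 7 and 6. Irf8, a transcription factor of monocytes, dendritic cells and B cells, was lower in blood (-1.58 ± 0.43, called in 1 of the 12), Socs1, the feedback inhibitor of interferon signalling, was higher (1.09 ± 0.25, in 8) and Lgmn was lower (-1.12 ± 0.24, in 7). With only the intact libraries fitted, Pvr, Icosl, Irf8, Socs1 and Lgmn were not called, and Irf8 lost its call also with RLE factors, with no filter on low counts, with symbol entries alone and without haemoglobin genes.

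After resection, Cd80 was higher and Ciita lower in blood than in the spleen. Cd80 differed by 1.83 ± 0.39 on the log2 scale (edgeR adjusted p = 0.0113), a call that held in all 12 fits without 1 library. Ciita differed by -2.31 ± 0.58 (adjusted p = 0.0230), with a highest blood library of 39.8 CPM and a lowest splenic one of 52.2 CPM. This call was lost without resected spleen library 1 or 2 or any of the 3 resected blood libraries, at -1.73 to -2.42 and adjusted p of 0.0631 to 0.107. In this comparison 6.28% of features were called higher and 6.87% lower in blood, and the 10 genes had 1 of each. The libraries did not overlap for 2 of the 10, against 42.4% of all features.

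Cd86, which was lower in intact blood, was at 0.26 ± 0.34 between the resected tissues (edgeR adjusted p = 0.646). Without the 3 low libraries the count of called members rose from 2 to 5, as H2-Aa (-1.24), H2-Ab1 (-1.01) and H2-DMb1 (-1.55) then passed as well. With the replicate number as a block over all 12 libraries, H2-DMb1 passed (-1.50, edgeR adjusted p = 0.0480, against -1.57 and 0.114 without the block). The numbers may pair only these 2 groups, which no label states, and the block also applied to the intact groups, so this value is not a paired test. The main values between the resected tissues come from a fit that ignores such a pairing. The comparisons between tissues and those of resection share libraries, so their values are given side by side and are not independent.

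Around the 10 genes, H2-Eb2 (-3.59 ± 0.56) and H2-Oa (-2.24 ± 0.58) were again called lower in blood, in 12 and 5 of the fits without 1 library, and H2-Oa was not called with only the resected libraries fitted. Cr2 (-3.98 ± 0.81) was called lower in 11, being lost without resected blood library 3 (-3.67, adjusted p = 0.0503). Rfx5, the DNA-binding subunit of the X box complex, was lower in blood by -1.30 ± 0.37 (edgeR adjusted p = 0.0354). That call held in 2 of the 12 fits, with -0.93 to -1.42 in the others, and was lost with the replicate block (-1.26, adjusted p = 0.0617), with RLE factors, with no filter on low counts, with symbol entries alone, without haemoglobin genes and with only the resected libraries fitted. Irf4, a transcription factor of activated B cells and dendritic cells, was lower in blood (-2.75 ± 0.58), and Socs1 (1.36 ± 0.25) and Ifngr2, the signalling chain of the interferon-gamma receptor (1.19 ± 0.28), were higher. Irf4 lost its call without resected blood library 2 or 3 (-2.53 to -2.69) and Ifngr2 without resected spleen library 2 or resected blood library 3 (1.09 to 1.18).

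Among the processing genes Ctsd (1.98 ± 0.22) and Ctsl (3.00 ± 0.55) were higher in resected blood and Cd83, which keeps class II molecules on the surface, was lower (-2.47 ± 0.57). Cd83 stood at 1278, 650 and 349 CPM in resected spleen and at 140, 149 and 124 CPM in resected blood, and its call held in 8 of the 12 fits, with -1.76 to -2.44 in the others. Pdia3 was higher by 1.06 ± 0.15. Of the ligands, Tnfsf9 (5.99 ± 0.59), Vsig4 (a mean of 42.6 against 0.66 CPM) and Pvr (2.00 ± 0.34) were higher in blood and Cd200 (-2.27 ± 0.41) and Cd276 (-1.95 ± 0.58) were lower. The calls of the first 4 held in all 12 fits without 1 library, whereas Cd276, at 0.188 against 0.733 CPM, held in 2 (-1.67 to -2.21 in the others) and was lost with the replicate block (-1.91, adjusted p = 0.0607), with no filter on low counts, with symbol entries alone, without haemoglobin genes and without the 3 low libraries.

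H2-Ea, the alpha chain of I-E, was examined after its values had been seen. Mice of the H-2b haplotype, to which C57BL/6 belongs, are known to carry a deletion at the start of this gene and to make no I-E molecule. The entry stood at 1569, 1332 and 1507 CPM in intact spleen, 1403, 1270 and 435 CPM in resected spleen, 712, 816 and 213 CPM in intact blood and 677, 559 and 310 CPM in resected blood. It followed H2-Eb1 closely, at 108% to 149% of the H2-Eb1 CPM in all 12 libraries, and was among the 5 features most like H2-Ab1. Its only entry was a RefSeq transcript of the non-coding class, with 0 entries under the gene symbol. That class describes the reference entry, and whether the counted RNA was coding was not tested. Which H2-Ea allele these mice carried, and which stretch of the gene the counts came from, was not tested.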

How the data were processed

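RNA-seq was analysed in 12 libraries of CD115+ monocytes, grouped by the labels. For each library the authors deposited estimated counts (up to 3 decimals), not scaled to depth or length. The submitters' processing notes name STAR and GRCm39; the counting tool and annotation are not given in the sources used here. Each table held 67088 entries; 25340 of 40274 accessions were matched to symbols through RefSeq's GRCm38.p6 gene table, used for names only. The 2558 unassigned transcripts (1.75% to 4.33% of a library) were left out. Counts were summed per gene and rounded. Features kept by filterByExpr were scaled with TMM and fitted with edgeR 4.0.16 (robust quasi-likelihood, R 4.3.3) over all 4 groups without covariates; the common dispersion was 0.312. Standard errors were the absolute log2 fold change divided by the square root of the F statistic. Called genes had an adjusted p-value (Benjamini-Hochberg, all features) under 0.05 and changed by more than 1 on the log2 scale. The code was tested on simulated data. Limits of 3 counts correspond to 0.0626 to 0.102 CPM and cover counting error only.

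Correlations used log2(CPM + 0.5). Libraries of a group differed beyond counting noise (chi-square over its degrees of freedom, 21 to 635) and each counted as 1 replicate. The members, the lists and the motif were chosen with earlier results of these data known. All members are named in each comparison; from the other lists, up to 3 called genes with the smallest p-values per direction were taken, and, for likeness, 5 features each for H2-Ab1, Cd86 and Cd274. Ighm, Ighd and Trac were not analysed here. Some genes that meet the rule for names are not reported here. Alternatives were DESeq2 1.42.0, RLE factors, all features without a filter, at least 10 counts in each library, symbol entries alone, haemoglobin genes left out (13.2% to 34.2% of gene counts in blood, up to 3.47% in spleen), only the 2 groups compared, the replicate number as a block, each library left out, and, added after seeing the data, the number 3 libraries of intact blood, resected blood and resected spleen left out. As a check of pairing, deviations from the group means of same-numbered libraries were correlated. The r was 0.238, 0.400 and 0.525 between resected spleen and resected blood, so the numbers may pair these 2 groups, which no label states. The main fits used no pairing. Library 3 of both groups also had the highest neutrophil and lowest B-cell sums of its group, and whether this gave the r was not tested. Resected spleen 2 and resected blood 1, which differ in number, had an r of 0.365. In every other pair of groups at least 1 r of same-numbered libraries was 0.1 or lower. The block was fitted over all 12 libraries and so also applied to groups that the numbers did not pair.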

Additional observations from a re-analysis of the deposited data

Results flagged for a closer look

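For 3 genes of the fixed lists the resection effect differed between blood and spleen by the test of the difference itself (edgeR, Benjamini-Hochberg adjusted over all features). For Tnfsf9 the effect was 6.30 ± 0.75 larger in blood on the log2 scale (adjusted p = 0.0228), for Clec10a, a lectin of dendritic cells and macrophages, 3.54 ± 0.41 (adjusted p = 0.0215), and for Mertk, a macrophage receptor for dying cells, 2.63 ± 0.37 (adjusted p = 0.0334). Clec10a stood at 6.95 to 14.1 CPM in intact and 40.8, 44.1 and 55.7 CPM in resected blood, against 5.70, 5.97 and 4.53 CPM in intact and 1.42, 2.12 and 2.38 CPM in resected spleen, so every library of the resected state lay above the intact ones in blood and below them in the spleen. The calls of Tnfsf9, Clec10a and Mertk held in 8, 9 and 5 of the 12 fits without 1 library, with differences of 5.74 to 6.80, 3.29 to 3.80 and 2.47 to 2.86, and all 3 were lost with the replicate number as a block (adjusted p = 0.0544, 0.0544 and 0.112).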

How the results depend on the processing

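The number of the 10 genes called moved with several settings. For resection in blood it was 4 in place of 3 with DESeq2 (Ciita gained), 2 with no filter on low counts (Cd274 lost), and 2 to 4 leaving out each library. With only the 2 groups compared it was 1 in place of 3 for resection in blood and 0 in place of 1 between the intact tissues. With DESeq2 it was 1 in place of 0 for resection in spleen, 2 in place of 1 between the intact tissues and 1 in place of 0 for the difference of the resection effect. A minimum of 10 counts gave 1 for resection in spleen, and the replicate number as a block gave 2 between the intact and 3 in place of 2 between the resected tissues (H2-DMb1 gained). Leaving out each library gave 0 to 1 for resection in spleen, 0 to 2 between the intact tissues and 1 to 2 between the resected tissues. Leaving out the 3 low libraries, an alternative chosen after seeing the data, gave 4 for resection in blood (Ciita and H2-DMb1 gained, Cd274 lost), 1 for resection in spleen, 3 between the intact tissues and 5 between the resected tissues. The replicate block also ended the call of Cd274 in blood (1.49, adjusted p = 0.0818) and made that of Ciita in blood (-1.45, adjusted p = 0.0433) and between the intact tissues (-2.18, adjusted p = 0.0228), although the numbers did not pair those groups.

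Directions turned only for small, uncalled fold changes of the 10 genes, and the cause was not tested. Leaving out each library gave the following log2 ranges: in blood after resection Cd74 -0.58 to 0.17, H2-Aa -0.71 to 0.016 and H2-Eb1 -0.64 to 0.092; in spleen after resection H2-Aa -0.68 to 0.047, H2-DMa -0.60 to 0.092, H2-DMb1 -0.69 to 0.14 and Cd86 -0.11 to 0.30; between the intact tissues H2-DMa -0.69 to 0.0051 and Cd274 -0.34 to 0.39; between the resected tissues Cd274 -0.62 to 0.081; for the difference of the resection effect Ciita -0.78 to 0.12, H2-Aa -0.37 to 0.38, H2-Ab1 -0.25 to 0.50, H2-Eb1 -0.046 to 0.72, H2-DMa -0.51 to 0.24 and Cd274 -0.73 to 0.084. Without the 3 low libraries H2-Aa, H2-DMa and H2-DMb1 were at 0.048, 0.092 and 0.14 in spleen, H2-DMa and Cd274 at 0.0065 and 0.29 between the intact tissues, and H2-Aa, H2-Ab1 and H2-Eb1 at -0.48, -0.36 and -0.15 for the difference. With the replicate block Cd86 in spleen was at -0.011, and the differences of Ciita and H2-DMa were 0.041 and 0.22. Without haemoglobin genes Cd274 between the intact tissues was at 0.0088. That setting moved the median of all features from -0.019 to 0.097 between the intact and from -0.139 to -0.016 between the resected tissues. The 10 genes had at least 355 counts in every library, and the common dispersion was 0.312 with 3 libraries a group; what limited the calls was not tested.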
